A study of Drosophila melanogaster with 9 samples.

Results

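The genes described here encode the subunits of the respiratory chain and of ATP synthase that lie in the nuclear genome of Drosophila melanogaster. They were chosen by FlyBase symbol, as all genes whose symbol begins with ND-, SdhA to SdhD, UQCR-, COX followed by a digit, or ATPsyn, and the prefix gave the complex, I to V in that order. Of the 13676 genes in the count table, 85 matched, with 39 in complex I, 7 in complex II, 8 in complex III, 16 in complex IV and 15 in complex V. The rule used names only and no measured value. By their symbols 24 of the 85 are paralogs, named after another subunit with an added L, and the other 61 are called subunits below. ND-AGGG and UQCR-11 also match and were not analysed here.

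RNA had been sequenced from eye-antennal imaginal discs, the larval epithelia that form the eye, the antenna and most of the head capsule, of wild-type OregonR larvae that received no treatment. The stages were 72h after egg laying (AEL; late 2nd instar), 96h AEL (mid 3rd instar) and 120h AEL (late 3rd instar), with 3 libraries each, named A, B and C. Each library pooled discs of many larvae: 120 to 130 discs per library for the youngest stage, then 80 to 90, and 40 to 50 for the oldest. Discs at 72h AEL came from males and females and those of both later stages from females, so stage and sex cannot be told apart in the first transition, and the 120h AEL libraries are labelled as a reanalysis of libraries that had already been published. The authors describe the 3 libraries of a stage as biological replicates. Neither they nor the labels say whether these came from separate cultures, so p-values measure the spread between these libraries only.

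The respiratory chain sits in the inner mitochondrial membrane. Complex I takes electrons from NADH and complex II from succinate, complex III passes them on to cytochrome c, complex IV hands them to oxygen, and complexes I, III and IV pump protons, whose return through complex V drives ATP synthesis. Complex II is encoded wholly in the nucleus, whereas the other complexes also hold subunits made from mitochondrial DNA. A disc grows by cell division through these stages, and its eye part starts to differentiate behind the morphogenetic furrow in the 3rd instar. In Drosophila, mutants of respiratory chain subunits are known for effects on the cell cycle in the eye disc, among them those of COX5A.

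Total counts were 17675472 to 37305763 per library. Levels are given in CPM, read counts relative to the library size after TMM scaling, and comparisons of levels between genes in CPM per kb of coding length. At 72h AEL, A and B differed by no more than sampling noise (chi-square per gene 1.02 over 10235 genes, against 36.2 to 488 for the other pairs of a stage), so they were counted as 1 sample, and n is 2 for that stage and 3 for the others. Within libraries the counts followed coding length to different degrees: Spearman's correlation of a library's deviation from the mean of all libraries with coding length, over 9052 genes, was -0.49, -0.49 and -0.34 in the 72h AEL libraries, 0.59, 0.44 and 0.06 in those of 96h AEL, and 0.47, 0.05 and 0.39 in those of 120h AEL. This bears on the members, since 44 of the 61 members tested (72.1%) have coding sequences of up to 600 bp, against 16.7% of all genes tested, and a second fit with each library's length trend as an offset is therefore given beside the main values. All 10 eye-antennal disc markers (ey, toy, so, eya, dac, Dll, hth, ss, dan and Optix) were detected in every library, with summed levels of 734 to 752, 1735 to 2269 and 1434 to 1587 CPM in order of stage.

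From 72h to 96h AEL the respiratory chain genes fell together, in all 5 complexes. Of 61 members tested, 54 fell and 0 rose (edgeR quasi-likelihood test, adjusted p under 0.05 over all 8904 genes tested; no member rose at an unadjusted p under 0.05 or with DESeq2), against 23.0% of all genes tested that were lower and 19.4% that were higher. The members' median log2 fold change was -1.17, beside -0.04 for all genes, and their range was -1.54 for ND-23 to -0.23 for SdhA. The interquartile range over members was 0.25 on the log2 scale, against 1.5 over all genes. Samples of both stages did not overlap for 60 of the 61, SdhA being the exception, beside 38.1% of all genes that were lower without overlap. Summed over the 85 members, the level was 30776, 30820 and 25284 CPM at 72h AEL and 11832 to 13537 CPM at 96h AEL, 44.7% of the 72h AEL mean. In discs as a whole, fewer cells rich in these RNAs and less RNA per cell cannot be told apart.

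The adjusted p of the 54 calls ran from 0.0093 to 0.0495, with a median of 0.0211. At an adjusted p under 0.01 only ND-23 was called, 1 of 61, beside 5.37% of all genes. Without 96h AEL replicate B none of the 61 was (edgeR; 50 at an unadjusted p under 0.05), beside 5.64% of all genes lower in that fit. All 61 log2 fold changes were negative there too, with a median of -1.13. Without 96h AEL replicate A 17 fell, beside 12.0% of all genes, and without 96h AEL replicate C 57 fell, beside 21.9%. Leaving out 72h AEL replicate A or B, which count as 1 sample, left 53 and 54, beside 22.8% and 22.9%. Without 72h AEL replicate C that stage has 1 sample, and the median was -1.34. With DESeq2, 60 members fell, beside 30.5% of all genes. With the length offset 44 fell, beside 25.3% of all genes, and all 61 log2 fold changes stayed negative, with a median of -0.63 against -0.06 for all genes. In that fit 6 fell without 96h AEL replicate B, beside 6.98% of all genes, 25 without A, beside 15.1%, and 34 without C, beside 19.1%. The count was 44 without 72h AEL replicate A or B, beside 25.4%, and without 72h AEL replicate C the median was -0.73. Scaling by library size alone left 22 members lower, beside 14.4% of all genes, and moved the median of all genes to 0.44 and that of the members to -0.67.

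From 96h to 120h AEL few members passed, in a share near that of all genes. The same 61 were tested, among 8102 genes, and 5 fell: ND-39 of complex I, SdhB of complex II, UQCR-C1 and UQCR-C2 of complex III and ATPsynC of complex V, beside 6.29% of all genes. None rose (edgeR, 0 also at an unadjusted p under 0.05 and with DESeq2), beside 8.27% of all genes. Of the 61 fold changes 56 were negative, and the median was -0.28 beside 0.01 for all genes. Leaving out 1 library at a time moved this median between -0.41 and -0.09: without 96h AEL replicate C it was -0.09, with 20 of the 61 positive, and without 120h AEL replicate A it was -0.16. Samples of both stages did not overlap for 16 members, all lower at 120h AEL, beside 15.7% of all genes lower without overlap. With DESeq2, 15 members fell, beside 11.4% of all genes, and with the length offset 40 fell, beside 10.5%, with a median of -0.42. With the replicate letters as a block in the fit 0 fell (edgeR; 14 at an unadjusted p under 0.05), beside 4.6% of all genes. The calls were lost without some single libraries, although the 5 genes called kept log2 fold changes of -0.74 to -0.46 in all 6 fits without 1 library. None of the 61 fell without 96h AEL replicate B, 120h AEL replicate A or 120h AEL replicate C, beside 3.26%, 3.26% and 2.54% of all genes. In these fits 9, 7 and 11 members were lower at an unadjusted p under 0.05 (edgeR). The count was 2 without 96h AEL replicate A, 3 without 120h AEL replicate B and 5 without 96h AEL replicate C, beside 4.34%, 4.72% and 7.2%. Leaving out 1 library at a time under the length offset left 11 to 34 lower, beside 5.11% to 10.3% of all genes, the lowest count without 96h AEL replicate B or 120h AEL replicate A. The summed level of the members at 120h AEL was 8540 to 10674 CPM, 34.4% of that at 72h AEL.

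**Figure D1:**
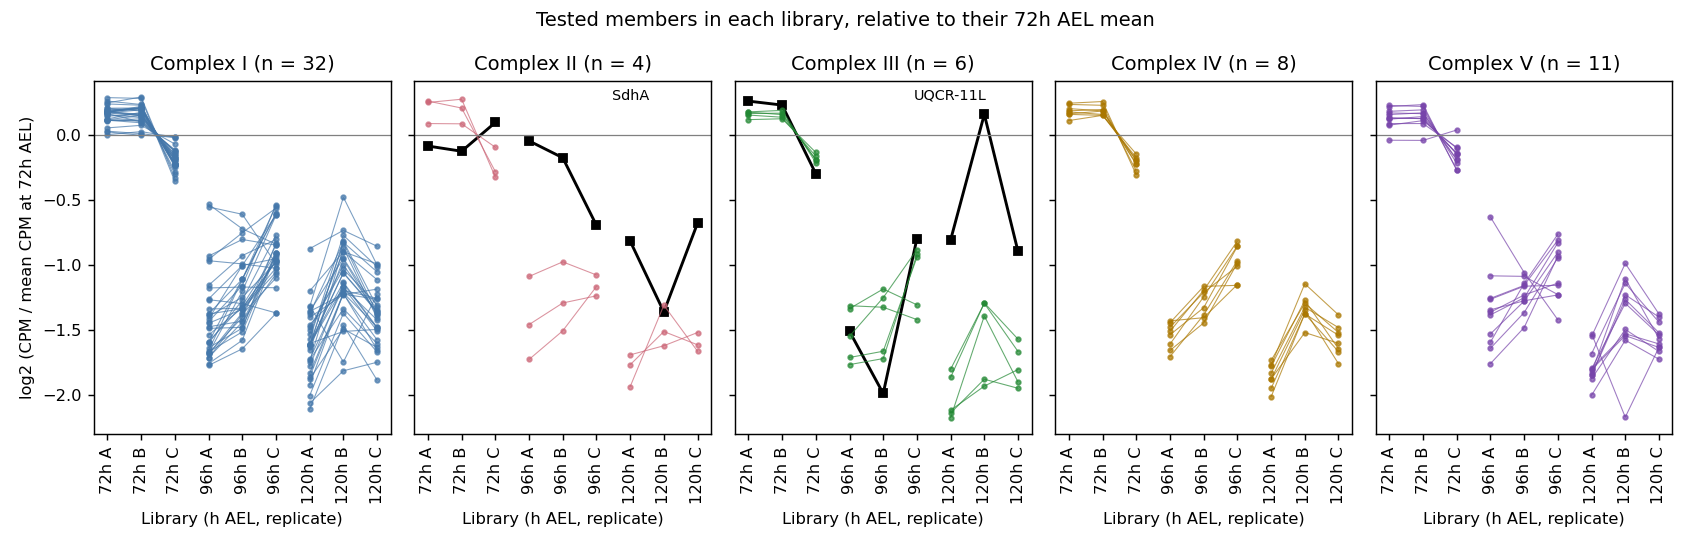
Level of each tested member in each library, as log2 of its CPM over its mean CPM at 72h AEL, with 1 panel per complex, points for libraries and lines joining the same gene within a stage. SdhA and UQCR-11L are drawn in black; apart from SdhA, every tested member lies lower in all 96h AEL libraries than in any 72h AEL library.

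In complex I, the NADH dehydrogenase, 27 of 32 tested members fell from 72h to 96h AEL, with a median of -1.15. The 5 that did not pass (ND-B12, ND-B14, ND-B18, ND-MNLL and ND-MWFE) had log2 fold changes of -1.05 to -0.92 with adjusted p of 0.0534 to 0.0621. ND-23, the subunit with iron-sulphur clusters in the arm that leads electrons to ubiquinone, had 285, 288 and 214 CPM at 72h AEL, 73.4, 80.1 and 96.8 CPM at 96h AEL and 58.1, 90.8 and 67.8 CPM at 120h AEL. It had the largest fall of all members in the TMM fit, a log2 fold change of -1.54 (SE 0.21, adjusted p = 0.0093). With the length offset it had -1.17 (adjusted p = 0.00443), the largest fall of complex I and less than the -1.27 of UQCR-C1. From 96h to 120h AEL its samples overlapped, with a log2 fold change of -0.21 (SE 0.20, adjusted p = 0.54). ND-39, an accessory subunit of the same arm, had 530.4, 538 and 425 CPM at 72h AEL, 199.7, 196 and 186 CPM at 96h AEL and 115, 137 and 143 CPM at 120h AEL. It fell in both transitions without overlap of samples, with log2 fold changes of -1.26 (SE 0.18, adjusted p = 0.0101) and -0.56 (SE 0.13, adjusted p = 0.0323), and ended at 27.4% of its 72h AEL mean, the lowest of complex I. With the length offset both calls held, at -1.17 and -0.58.

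ND-23 is 1 of the core subunits of the matrix arm of complex I, and the others were lower in the first transition as well. ND-75, with the iron-sulphur clusters of the NADH-oxidizing arm, had 315, 309 and 307 CPM at 72h AEL, 211, 203 and 156 CPM at 96h AEL and 125, 92.4 and 133 CPM at 120h AEL. Its first log2 fold change was -0.66 (SE 0.20, adjusted p = 0.0495) and its second -0.70 (SE 0.19, adjusted p = 0.055), and with the length offset they were -1.08 (adjusted p = 0.00700) and -0.65 (adjusted p = 0.00965). ND-51, which binds NADH and FMN, had 381, 376 and 325 CPM at 72h AEL, 180.3, 177 and 173 CPM at 96h AEL and 138, 151 and 147 CPM at 120h AEL, and fell in the first transition with a log2 fold change of -0.94 (SE 0.16, adjusted p = 0.0145), or -0.92 with the length offset. The level of ND-51 varied little within each later stage. ND-49, at the ubiquinone site, had 353, 349 and 341 CPM at 72h AEL, 239, 210.0 and 194 CPM at 96h AEL and 189, 208 and 191 CPM at 120h AEL. Its first log2 fold change was -0.64 (SE 0.17, adjusted p = 0.0379), and it kept 56.7% of its 72h AEL mean at 120h AEL, the highest share among all 60 subunits tested. ND-20, which holds the last iron-sulphur cluster before ubiquinone, had 276, 274 and 234 CPM at 72h AEL, 134, 146 and 142 CPM at 96h AEL and 96.4, 109 and 112 CPM at 120h AEL. It fell with a log2 fold change of -0.81 (SE 0.16, adjusted p = 0.0192) and then had one of -0.41 (SE 0.12, adjusted p = 0.0645), with no overlap of samples in either transition. ND-24 and ND-30, also core subunits of this arm, had first log2 fold changes of -0.91 and -1.02. By module, all 7 tested subunits of the NADH-oxidizing module fell, with a median of -1.19, or -0.68 and again 7 of 7 with the length offset. Of the ubiquinone module 6 of 7 fell, with a median of -1.02, or -0.62 and again 6 of 7 with the length offset.

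Among the members placed in complex I by their prefix, ND-MLRQ, which encodes a small membrane protein, was the most abundant per kb. It had 592, 601 and 455 CPM at 72h AEL, 188, 189 and 281 CPM at 96h AEL and 205, 273 and 207 CPM at 120h AEL. It fell with a log2 fold change of -1.21 (SE 0.26, adjusted p = 0.0234). From 96h to 120h AEL the samples overlapped and the log2 fold change was 0.06 (SE 0.22, adjusted p = 0.884), or -0.11 with the length offset. For the complex as a whole the second transition gave a median of -0.20 and 1 call, or -0.33 and 16 calls with the length offset. ND-MWFE shares coding bases with TppII on the opposite strand, and the counts do not use strand, so its reads cannot be assigned with certainty.

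Complex II, succinate dehydrogenase, is also an enzyme of the citric acid cycle. SdhC and SdhD, the membrane anchors, and SdhB, the iron-sulphur subunit, fell from 72h to 96h AEL, and SdhA, the flavoprotein with the active site, did not pass. SdhA had 218, 212 and 247 CPM at 72h AEL, 224, 205 and 143 CPM at 96h AEL and 132, 90.2 and 145 CPM at 120h AEL, so that 96h AEL replicates B and C lay below all 72h AEL libraries and A did not. Its log2 fold changes were -0.23 (SE 0.25, adjusted p = 0.471) and -0.64 (SE 0.24, adjusted p = 0.143), and with the length offset -0.55 (SE 0.17, adjusted p = 0.054) and -0.60 (SE 0.17, adjusted p = 0.053). SdhA has the longest coding sequence of complex II, 1986 bp, and scaling by library size alone turned its first log2 fold change to 0.24. SdhB had 318, 318 and 280.4 CPM at 72h AEL, 141, 152 and 142 CPM at 96h AEL and 92.8, 97.5 and 105 CPM at 120h AEL. It fell in both transitions with separate samples throughout, and its log2 fold changes were -0.996 (SE 0.16, adjusted p = 0.0125) and -0.56 (SE 0.11, adjusted p = 0.0183), or -0.74 and -0.63 with the length offset, both called.

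SdhC, the most abundant of complex II per kb, had 371, 377 and 249 CPM at 72h AEL, 94.3, 109.9 and 139 CPM at 96h AEL and 81.6, 126 and 98.6 CPM at 120h AEL. It had the largest fall of the complex in both fits, a log2 fold change of -1.40 (SE 0.26, adjusted p = 0.0179) or -0.91 with the length offset. In the second transition it was not called, with -0.17 (SE 0.22, adjusted p = 0.657), but was with the length offset, with -0.31 (adjusted p = 0.0459). SdhD had 245, 236 and 168 CPM at 72h AEL, 74.6, 83.7 and 87 CPM at 96h AEL and 60.2, 71.9 and 67 CPM at 120h AEL, and fell with a log2 fold change of -1.27 (SE 0.20, adjusted p = 0.0126) before one of -0.30 (SE 0.12, adjusted p = 0.178). At 120h AEL the levels of SdhB, SdhC and SdhD were 32.4% to 32.9% of those at 72h AEL, and that of SdhA was 52.8%. The interquartile range over the 4 subunits in the first transition was 0.50 in the TMM fit and 0.14 with the length offset.

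Complex III, the cytochrome bc1 complex, had the lowest median of the first transition in the TMM fit, -1.30, with 5 of 6 tested members lower and UQCR-11L just outside. UQCR-C1, a core protein of the matrix side, had 1191, 1193 and 931 CPM at 72h AEL, 428, 425 and 398 CPM at 96h AEL and 242, 289 and 276 CPM at 120h AEL. It fell in both transitions, with log2 fold changes of -1.30 (SE 0.19, adjusted p = 0.0104) and -0.63 (SE 0.13, adjusted p = 0.0231), and ended at 25.3% of its 72h AEL mean, the lowest of all subunits. UQCR-C2, the other core protein, had 625, 628 and 525 CPM at 72h AEL, 229, 254 and 233 CPM at 96h AEL and 133, 151 and 165 CPM at 120h AEL. Its log2 fold changes were -1.22 (SE 0.17, adjusted p = 0.0104) and -0.67 (SE 0.13, adjusted p = 0.0198), and for both core proteins each stage lay wholly below the one before it. With the length offset all 4 calls held, with first values of -1.27 for UQCR-C1, then the largest fall of all members, and -1.16 for UQCR-C2. UQCR-14, a small matrix-side subunit and the most abundant of the complex per kb, had 555, 559 and 424 CPM at 72h AEL, 150.1, 155 and 256 CPM at 96h AEL and 141, 200.2 and 155 CPM at 120h AEL. It fell with a log2 fold change of -1.34 (SE 0.30, adjusted p = 0.0259), and the later stages overlapped, with -0.18 (SE 0.26, adjusted p = 0.691). UQCR-6.4, a small membrane subunit, had the largest called fall of the complex in the TMM fit, a log2 fold change of -1.36 (SE 0.31, adjusted p = 0.0264), and only -0.47 (adjusted p = 0.0215) with the length offset. Its level went from 203, 200.1 and 157 CPM to 52.9, 54.6 and 95 CPM, and 39.9, 68.5 and 48.2 CPM at 120h AEL.

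Complex IV, cytochrome c oxidase, moved evenly in the TMM fit, with an SD over its subunits of 0.07 on the log2 scale in each transition. In the first, complexes III and V were close to it, with 0.08 and 0.10, and complexes I and II had 0.21 and 0.52. In the second the others had 0.17 to 0.58. With the length offset the SD of complex IV was 0.15 in the first transition and 0.06 in the second, beside 0.15 to 0.37 and 0.14 to 0.53 for the others. All 8 tested subunits fell from 72h to 96h AEL, with log2 fold changes between -1.28 and -1.10, and none passed from 96h to 120h AEL in the TMM fit, with values of -0.41 to -0.22. With the length offset 5 of 8 fell in the first transition and 8 of 8 in the second, with medians of -0.48 and -0.50. COX4, the subunit next to the catalytic core, had 870.1, 865 and 691 CPM at 72h AEL, 287, 348 and 350.1 CPM at 96h AEL and 213, 272 and 257 CPM at 120h AEL. Its log2 fold changes were -1.20 (SE 0.20, adjusted p = 0.0143) and -0.41 (SE 0.16, adjusted p = 0.159), or -0.74 and -0.55 with the length offset, both called, the first being the largest fall of complex IV in that fit. COX5A, a matrix-side subunit, had 949.5, 958 and 649 CPM at 72h AEL, 263, 339 and 444 CPM at 96h AEL and 208, 309 and 276 CPM at 120h AEL, with log2 fold changes of -1.15 (SE 0.30, adjusted p = 0.0345) and -0.40 (SE 0.24, adjusted p = 0.344). Within the 96h AEL stage it was highest in C. COX5B, the zinc-binding subunit, had 456, 468 and 381 CPM at 72h AEL, 157, 159 and 190.3 CPM at 96h AEL and 115, 166 and 125 CPM at 120h AEL, and fell with a log2 fold change of -1.27 (SE 0.18, adjusted p = 0.0108). COX7C, the most abundant of complex IV per kb and the one with the largest fall in the TMM fit, had 496, 489 and 384 CPM at 72h AEL, 139, 161 and 222 CPM at 96h AEL and 128, 182 and 141 CPM at 120h AEL. It fell with a log2 fold change of -1.28 (SE 0.26, adjusted p = 0.0207) and then had one of -0.22 (SE 0.22, adjusted p = 0.573). Under the length offset these were -0.41 (adjusted p = 0.0476) and -0.38 (adjusted p = 0.0156).

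Complex V, ATP synthase, had all 11 tested subunits lower from 72h to 96h AEL, with a median of -1.14. ATPsynbeta, the catalytic subunit, had 3283, 3279.8 and 3466 CPM at 72h AEL, 2181, 1623 and 1262 CPM at 96h AEL and 1172, 752 and 1090.0 CPM at 120h AEL. It fell with a log2 fold change of -0.95 (SE 0.27, adjusted p = 0.0405), the smallest fall of the complex in the TMM fit, whereas with the length offset its -0.99 (adjusted p = 0.0258) was the largest. Its second value of -0.75 (SE 0.26, adjusted p = 0.115) was the lowest of all members in that transition but did not pass. ATPsynC, whose ring turns in the membrane, had 2485, 2485 and 2189 CPM at 72h AEL, 1105, 1101 and 999.6 CPM at 96h AEL and 670.3, 803 and 754 CPM at 120h AEL. It fell in both transitions with no overlap between stages, with log2 fold changes of -1.08 (SE 0.16, adjusted p = 0.0119) and -0.53 (SE 0.13, adjusted p = 0.0458), although with the length offset the first was -0.47 (SE 0.23, adjusted p = 0.158). ATPsyngamma, the rotating shaft, had 1285, 1280.1 and 1002 CPM at 72h AEL, 451, 473 and 488 CPM at 96h AEL and 286, 383 and 346 CPM at 120h AEL, with log2 fold changes of -1.23 (SE 0.18, adjusted p = 0.0117) and -0.48 (SE 0.15, adjusted p = 0.0949).

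ATPsynO, part of the stalk that holds the catalytic head, had 1004, 1018 and 833 CPM at 72h AEL, 359, 394 and 419 CPM at 96h AEL and 252, 328 and 291 CPM at 120h AEL, with log2 fold changes of -1.19 (SE 0.18, adjusted p = 0.012) and -0.43 (SE 0.15, adjusted p = 0.127). In both ATPsyngamma and ATPsynO the libraries of each stage lay apart from those of the next, and both passed in the second transition with the length offset (adjusted p = 0.0105 and 0.00757). ATPsynCF6, another stalk subunit, had the largest called fall of the complex in the TMM fit, a log2 fold change of -1.30 (SE 0.30, adjusted p = 0.027), or -0.64 (adjusted p = 0.0194) with the length offset. Its level went from 706, 712 and 535 CPM to 184, 223 and 327 CPM. At 120h AEL it had 176, 289.8 and 211 CPM, which overlapped the 96h AEL stage, with a log2 fold change of -0.12 (SE 0.28, adjusted p = 0.806).

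**Figure D2:**
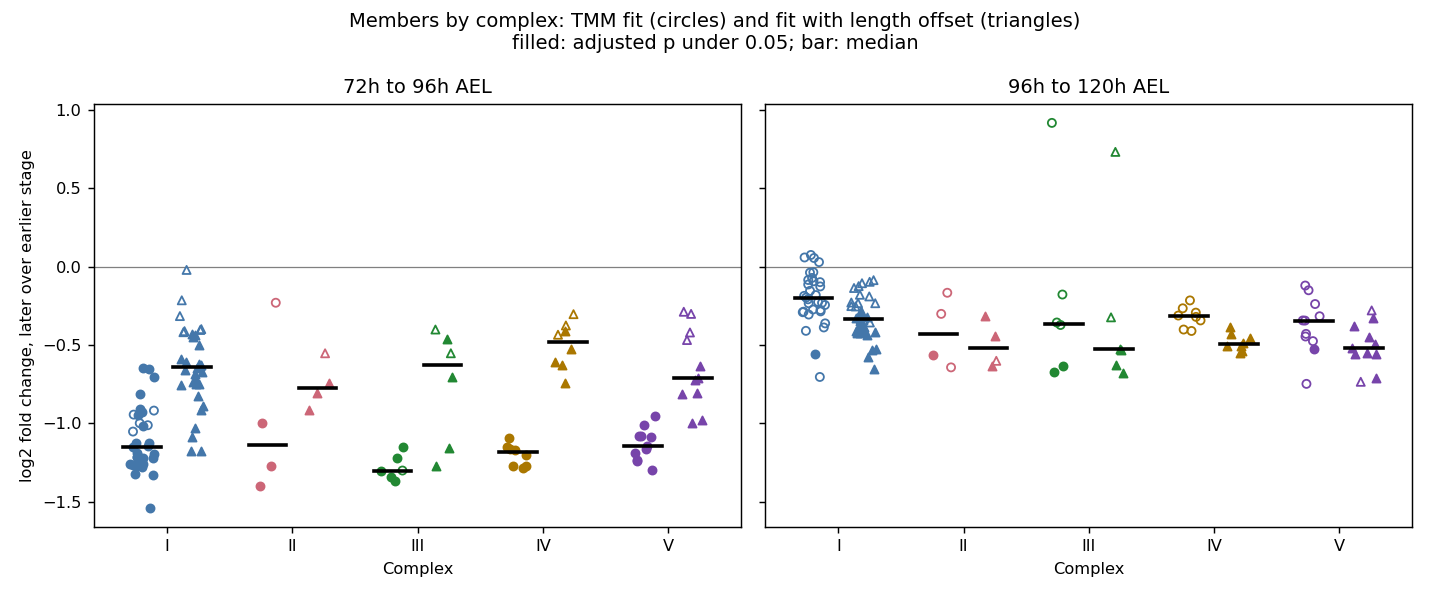
Log2 fold change of each tested member by complex, from 72h to 96h AEL on the left and from 96h to 120h AEL on the right, in the TMM fit (circles) and in the fit with the length offset (triangles). Filled symbols had an adjusted p under 0.05 and bars are medians; UQCR-11L is the single point well above 0 on the right, at 0.92 and 0.73.

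The complexes were ordered differently in both fits. In the TMM fit the medians of the first transition ran from -1.30 (complex III) through -1.18 (IV), -1.15 (I) and -1.14 (V) to -1.13 (II), and with the length offset from -0.78 (II) through -0.71 (V), -0.64 (I) and -0.63 (III) to -0.48 (IV). In the second transition complex I had the smallest fall in both fits, -0.20 and -0.33, and the other complexes had -0.43 to -0.32 and -0.53 to -0.50. Leaving out 1 library at a time moved the second-transition medians of the TMM fit from -0.34 to -0.0091 in complex I, -0.46 to -0.38 in II, -0.56 to -0.11 in III, -0.46 to -0.16 in IV and -0.50 to -0.20 in V. Summed over each complex, the level at 120h AEL was 39.5% of that at 72h AEL in complex I, 37.2% in II, 28.8% in III, 33.6% in IV and 32.4% in V. No test was made between complexes, since their genes are measured in the same libraries and are not replicates.

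Fold changes followed coding length differently among the members and among all genes. Over all genes the fold change of the first transition rose with coding length (Spearman's rho across genes 0.48, TMM fit), and over the 61 members rho was 0.22, a description of genes measured in shared libraries. With the length offset it was 0.07 over all genes and -0.75 over the members, so that long members then fell more than short ones. In the second transition rho was -0.11 over all genes and -0.45 over the members, or 0.05 and -0.31 with the length offset. In each of 6 classes of coding length the members' median lay below that of the other genes, by 0.34 for the 12 members of up to 300 bp (-1.17 against -0.83) and by 1.15 for the 3 members over 1500 bp (-0.66 against 0.49). In the second transition it again lay below in every class, by 0.28 to 0.65. Some long and short members also differed within a stage. At 96h AEL, C had the lowest library values of ATPsynbeta, ND-75 and SdhA, the 3 members over 1500 bp. Among members of up to 450 bp it had the highest of COX5A, COX7C and UQCR-14 but the lowest of ATPsynC, and the others were not counted.

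**Figure D3:**
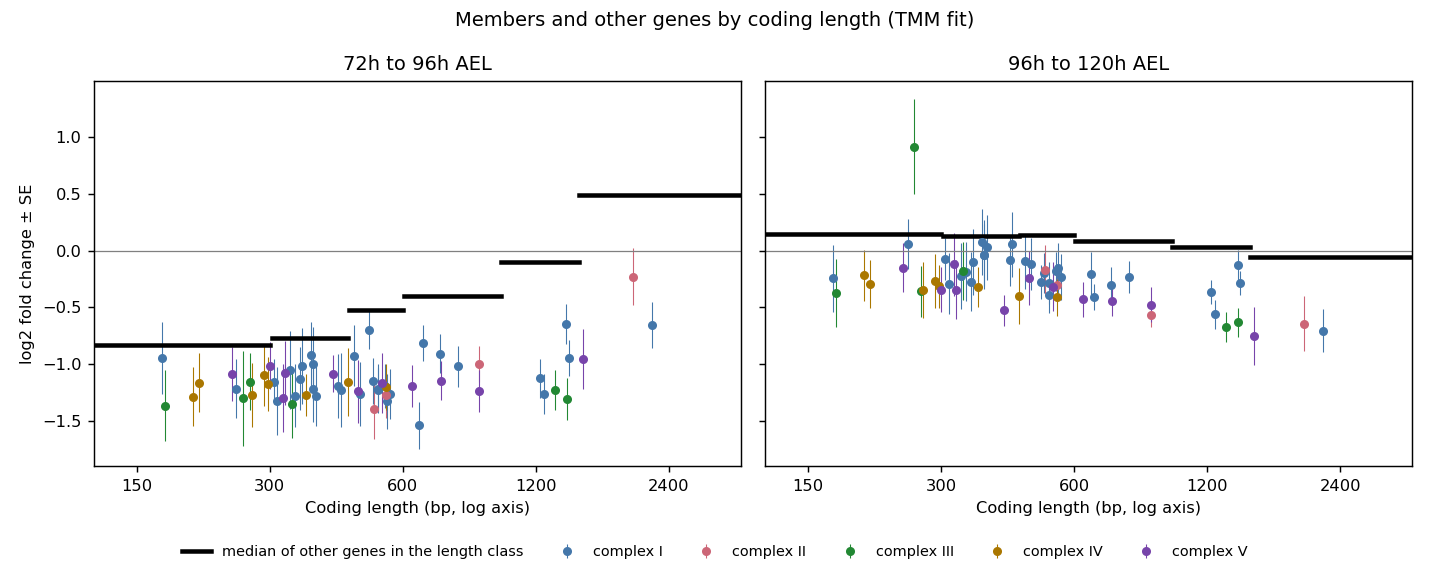
Log2 fold change ± SE of each tested member in the TMM fit against its coding length (log axis), from 72h to 96h AEL on the left and from 96h to 120h AEL on the right, coloured by complex. Black bars are the medians of all other tested genes in 6 classes of coding length, clipped at the axis ends; most members lie below the bar of their class in both panels.

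Per kb of coding length, the complexes had different median levels, and kept their order while all the medians fell. Median levels of the subunits at 72h AEL were 1686 CPM per kb in complex V, 1622 in IV, 1031 in III, 383 in I and 354 in II, and at 120h AEL 638, 552, 300.03, 167 and 115. ATPsynC stood highest of all, with 5603 CPM per kb at 72h AEL, and SdhA lowest, with 116. In complex I, ND-MLRQ had 2086 CPM per kb at 72h AEL and ND-75 141. The ranges of complex IV, from 1161 for COX5B to 2182 for COX7C, and of complex I overlapped only through ND-MLRQ, whose complex was taken from its prefix alone. The order of the 60 subunits by CPM per kb changed little between stages (Spearman's rho across genes 0.98 from 72h to 96h AEL and 0.98 from 96h to 120h AEL), a description of genes in shared libraries.

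**Figure D4:**
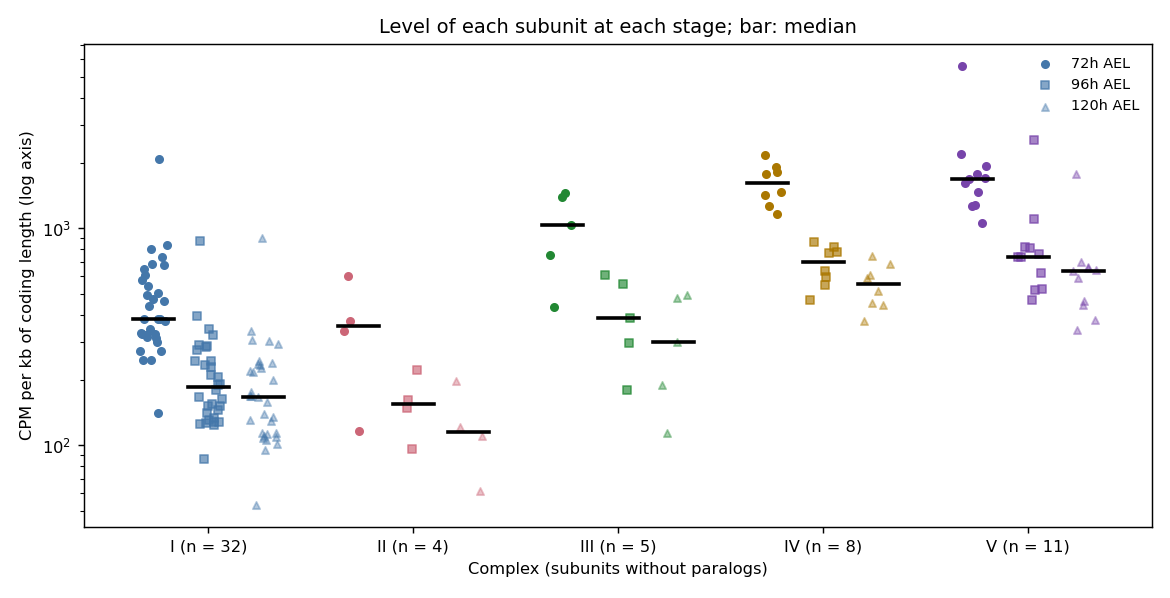
Mean CPM per kb of coding length (log axis) of each of 60 subunits at 72h, 96h and 120h AEL by complex, with bars for medians. The medians of complexes IV and V lie above those of complexes I and II at every stage, and all medians go down with stage.

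One gene named as a subunit had almost no reads. ND-B8 had 1 to 13 counts per library, 0.029 to 0.588 CPM, whereas 59 of the other 60 subunits had over 30 CPM in every library. It did not pass the filter on low counts, and no test was made. Whether mapping to 1 coding sequence per gene lowered its counts was not tested.

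The paralogs differed from their complexes above all in level. Of 24, 20 were under 1 CPM in every library and 8 of these had no more than 3 counts anywhere. COX6AL had 0 counts in all 9 libraries, which allows up to 3 counts, or 0.0703 to 0.151 CPM, in each. The 4 that reached 1 CPM were COX5BL, COX7CL, ATPsynepsilonL and UQCR-11L. Among the 23 paralogs whose parent was analysed, the gap was smallest between COX5BL and COX5B, whose lowest library was still 37.5-fold above the highest of COX5BL. Reads of near-identical copies can be split between them by the mapping, which counted each read on 1 coding sequence.

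COX5BL lies next to its parent COX5B, on the same strand of chromosome arm 2L (chr2L:6559431-6560133 and chr2L:6557800-6559308, BDGP6). It had 1.72, 3.06 and 0.998 CPM at 72h AEL, 1.27, 1.31 and 2.72 CPM at 96h AEL and 1.39, 2.11 and 1.73 CPM at 120h AEL, from 24 to 77 counts, so that no stage stood apart while COX5B fell. The log2 ratio of COX5BL to COX5B was -8.06 ± 0.70 (SD, n = 2) at 72h AEL, -6.65 ± 0.46 (n = 3) at 96h AEL and -6.26 ± 0.10 (n = 3) at 120h AEL. The differences between adjacent stages, 1.40 and 0.39, had exact permutation p of 0.2 and 0.4 (two-sided; adjusted p = 0.48 for both over 6 tests). The smallest p possible is 0.2 for the first transition and 0.1 for the second, so no ratio could pass.

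ATPsynepsilonL, named after the epsilon subunit that sun encodes, had 1.76, 1.43 and 0.998 CPM at 72h AEL, 0.985, 1.06 and 1.38 CPM at 96h AEL and 0.811, 1.71 and 0.667 CPM at 120h AEL, also with overlap of all stages. The parent sun had 419.9, 419.9 and 322 CPM at 72h AEL, 123, 142 and 212 CPM at 96h AEL and 98.4, 166 and 130.3 CPM at 120h AEL. The log2 ratio between them was -8.17 ± 0.19 (SD, n = 2), -7.08 ± 0.15 (n = 3) and -7.02 ± 0.51 (n = 3), a first difference of 1.09 (exact permutation p = 0.2) and a second of 0.06 (p = 0.8). COX7CL, which follows COX7C on the same strand, had 0.723, 0.716 and 1.08 CPM at 72h AEL, 0.117, 0.25 and 0.158 CPM at 96h AEL and 0.174, 0.251 and 0.133 CPM at 120h AEL, from 4 to 26 counts, with all 72h AEL libraries above all later ones. Its log2 ratio to COX7C was -8.92 ± 0.67 (SD, n = 2), -9.87 ± 0.55 (n = 3) and -9.55 ± 0.28 (n = 3), with exact permutation p of 0.4 for both differences.

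UQCR-11L was the single paralog that passed the filter on low counts and was tested with edgeR. It had 18.9, 18.5 and 12.8 CPM at 72h AEL, 5.53, 3.98 and 9.07 CPM at 96h AEL and 9, 17.6 and 8.47 CPM at 120h AEL, from 127 to 464 counts, which put it near the filter of 137.5 normalized counts for the first transition and 153 for the second. Its log2 fold change was -1.30 (SE 0.41, adjusted p = 0.0548) from 72h to 96h AEL and 0.92 (SE 0.42, adjusted p = 0.224) from 96h to 120h AEL, with -0.55 (SE 0.27, adjusted p = 0.154) and 0.73 (SE 0.28, adjusted p = 0.114) under the length offset. Neither transition passed in either fit, although the first was called with DESeq2 (adjusted p = 0.0137), with the merged pair A and B split (0.0145), with all samples in 1 fit (0.0402) and without 96h AEL replicate C (0.0312). The first value ranged from -1.63 to -1.06 and the second from 0.50 to 1.29 over the fits without 1 library. Its mean at 120h AEL was 74.3% of that at 72h AEL, beside 25.3% to 34.1% for the 5 subunits of complex III. The high 120h AEL value came from replicate B, and A and C overlapped with 96h AEL.

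**Figure D5:**
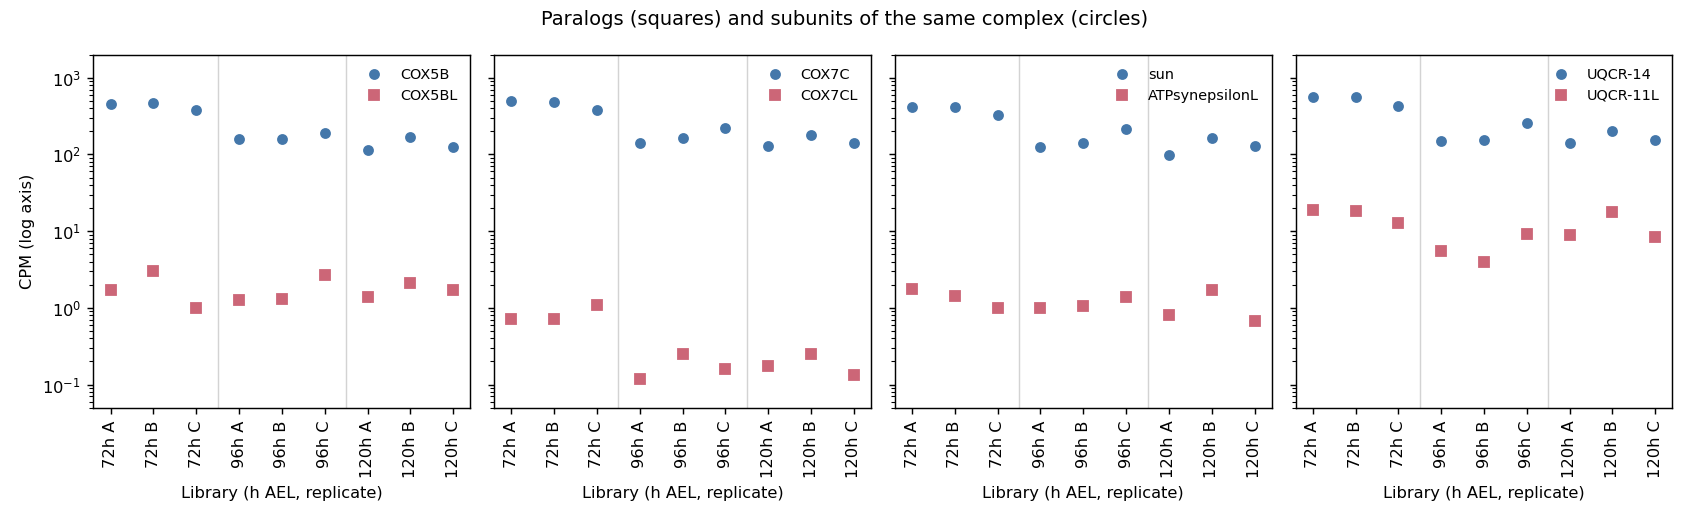
CPM (log axis) of 4 paralogs (squares) in each library beside a subunit of the same complex (circles): the parent for COX5BL, COX7CL and ATPsynepsilonL, and UQCR-14 for UQCR-11L. COX5BL and ATPsynepsilonL stay between 0.667 and 3.06 CPM at all stages while COX5B and sun fall.

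In the authors' deposited clusters of expression profiles, made from the same libraries, 61 of the 85 members had a cluster, and 53 of these (86.9%) were in cluster 3, which holds 5.87% of all clustered genes. They make up 10.2% of that cluster. Another 6, all of complex I (ND-20, ND-49, ND-75, ND-B16.6, ND-B17 and ND-MWFE), were in cluster 4. SdhA stood alone in cluster 8 and UQCR-11L in cluster 5. The 24 without a cluster were ND-B8 and 23 paralogs.

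Chain subunits with other symbols fell as well in the TMM fit. Of 7 tested nuclear genes (RFeSP and Cyt-c1 of complex III, ox, levy, cype, blw and sun), 7 fell from 72h to 96h AEL, beside 23.0% of all genes. Their median was -1.19. Under the length offset 4 of the 7 fell, beside 25.3% of all genes, with a median of -0.61. With scaling by library size alone 1 of the 7 did, a share near the 14.4% of all genes. RFeSP, the Rieske iron-sulphur protein, fell with a log2 fold change of -1.47 (SE 0.19, adjusted p = 0.00854), and blw, the alpha subunit of ATP synthase, with one of -0.94 (SE 0.23, adjusted p = 0.0318). From 96h to 120h AEL, 2 of the 7 fell, beside 6.29% of all genes. These were Cyt-c1 with a log2 fold change of -0.88 (SE 0.12, adjusted p = 0.00503) and blw with -0.91 (SE 0.23, adjusted p = 0.045). Cyt-c1L and Cyt-c-d, which are known from the male germline, were under 1 CPM in every library.

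The 13 protein genes of the mitochondrial genome, whose products join complexes I, III, IV and V, had no call in the TMM fit. Their summed level was lower at 96h AEL than at 72h AEL, and spread widely between libraries at 120h AEL. None was called in either transition (edgeR; 2 were lower and 0 higher at an unadjusted p under 0.05 in the first and 0 either way in the second; DESeq2 called 2 lower in the first and 0 in the second, and the length offset 1 higher in the first). Their median in the first transition was -0.23 on the log2 scale, and turned positive with the length offset (0.09) and with scaling by library size alone (0.25). In the second transition it was 0.92, with all 13 positive (12 with the length offset). Their summed level was 29865 to 37908 CPM at 72h AEL and lower in every 96h AEL library, at 50.1% of the 72h AEL mean. At 120h AEL the mean was 119% of that at 72h AEL, with an SD of 32382 CPM (n = 3), and the ranges of these stages overlapped. The highest 120h AEL library, with 76844 CPM, lay above every 72h AEL library, and the lowest, with 15399 CPM, lay below every one. The summed level differed 2.90-fold between the libraries of 96h AEL (8319 to 24160 CPM) and 4.99-fold between those of 120h AEL (15399 to 76844 CPM), where that of the nuclear members differed 1.14-fold and 1.25-fold.

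Members on the X chromosome fell as well. The median log2 fold change of the 12 tested was -1.05 in the first transition, when the sex of the discs also changed, against -1.19 for the 49 others, and in the second -0.26 against -0.29. The pairs under the length offset were -0.62 against -0.63 and -0.41 against -0.42.

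Markers of other tissues moved in the same libraries. The 11 muscle markers in the table summed to 18344 to 23370, 2721 to 9404 and 623 to 1191 CPM in order of stage. Of these 7 of 11 and then 8 of 11 were lower, beside 23.0% and 6.29% of all genes. Within 96h AEL this sum differed 3.46-fold between libraries. The 6 midgut markers summed to 1006 to 31176 CPM at 72h AEL, 0.657 to 1006 at 96h AEL, where up to 2 were at 0, and 29.6 to 91.1 at 120h AEL. The 7 hemocyte markers summed to 534 to 2253 CPM, 102 to 455 and 333 to 1407, and the 6 fat body markers to 3321 to 4418, 1716 to 6488 and 134 to 4796. The part of these tissues in the fall of the members was not tested.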

How the data were processed

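Reads of eye-antennal discs had been counted per gene. For the deposited raw counts the authors aligned reads by Bowtie2 against 1 coding sequence per gene, the longest, of FlyBase release r5.55 and counted them with SAMtools 0.1.19, without strand or normalization. The authors' deposited cluster numbers, scores without a unit, were used as given. Symbols of 13406 of the 13676 genes, and coordinates, came from the BDGP6 annotation, not the mapped release. Members, lists and tests were chosen with earlier results of these data known.

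Counts were TMM-scaled and tested with edgeR 4.0.16 (quasi-likelihood, two-sided, Benjamini-Hochberg over all genes tested) in R 4.3.3, each adjacent pair of stages in its own fit, after an HTSFilter-type filter (genes over 137.5 and 153.0 normalized counts in some sample). SE is the absolute log2 fold change over the square root of F. The length offset was a robust lowess (span 0.3) of each library's deviation on log2 coding length. DESeq2 1.42.0, other scalings and filters, 1 joint fit, the replicate block and leaving out each library were alternatives. Paralog ratios (0.5 counts added) had exact permutation tests in scipy 1.17.1. The tests were tried on simulated data. At 10 CPM counting error was 4.84% to 7.09%; 3 counts, the floor, were 0.0703 to 0.151 CPM, and both cover counting error only. Named are core subunits, the highest per kb and largest falls per complex, and paralogs reaching 1 CPM. Other genes named were chosen after their values were seen.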

Additional observations from a re-analysis of the deposited data

How the results depend on the processing

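From 72h to 96h AEL the members' fall kept its direction in every setting tried for the median of all 61 and of each complex, and the calls were less stable. Scaling by library size alone left 22 members lower (14.4% of all genes) and gave medians of -0.67 over all, -0.66, -0.64, -0.80, -0.69 and -0.65 for complexes I to V, and 0.24 for SdhA, where the median of all genes was 0.44. The length offset gave -0.63 over all and -0.64, -0.78, -0.63, -0.48 and -0.71. Without a filter the complex II median, now over 7 genes, was -0.96, and -0.21 in the second transition. At an adjusted p under 0.01, 1 member was lower (ND-23), beside 5.37% of all genes, and 0 in the second transition, beside 2.47%. Leaving out each library gave 0 to 57 members lower, 6 to 44 with the length offset, and complex II medians of -1.29 to -1.09.

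From 96h to 120h AEL, 15 members were lower with DESeq2 and 40 with the length offset, which turned ND-MLRQ to -0.11. Leaving out each library gave 0 to 5 lower, 11 to 34 with the length offset, and 20 positive members without 96h AEL replicate C, against 5 with all libraries; among the genes named in the text it changed the sign of ATPsynCF6 (-0.35 to 0.14), ND-MLRQ (-0.091 to 0.28), UQCR-14 (-0.34 to 0.11) and the ratio of ATPsynepsilonL to sun (-0.16 to 0.34). The causes were not tested. Leaving out libraries under the length offset, or for paralog ratios, was chosen after seeing the data.

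The letters A, B and C were shared between stages, and the labels do not say whether they pair libraries. Deviations of same-lettered libraries correlated at -0.38 to 0.11 in the first transition and 0.04 to 0.24 in the second. In the first 0 of 6 libraries correlated best with their own letter, and in the second 6 of 6 did. The main fits did not use the letters. With the replicate block 49 members were lower in the first transition (72h AEL A and B separate), beside 20.3% of all genes, and 0 in the second (edgeR; 14 lower at an unadjusted p under 0.05), beside 4.6%. Depth limits the paralogs under 1 CPM, for which no test was made.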

Other observations

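A list of mitochondrial genes outside the complexes, assembly factors among them, went down in part. Of 9 tested genes of this list, 5 fell from 72h to 96h AEL (Surf1, Scox, CIA30, ttm50 and Cchl) and 0 rose, beside 23.0% and 19.4% of all genes. The median log2 fold change was -0.50, beside -1.17 for the respiratory chain members. From 96h to 120h AEL 0 of the 9 passed (edgeR, with 2 lower at an unadjusted p under 0.05, and DESeq2 called 0). None of the 5 calls held with scaling by library size alone (log2 fold changes of -0.38 to -0.03) or without 96h AEL replicate B (adjusted p = 0.0825 to 0.155). Cchl, which attaches heme to cytochrome c, had 145, 146 and 141 CPM at 72h AEL, 77.3, 76.6 and 74.5 CPM at 96h AEL and 57.5, 79.3 and 60.4 CPM at 120h AEL. Scox, which carries copper to complex IV, had 82.5, 83 and 72.2 CPM at 72h AEL, 42, 42 and 50.1 CPM at 96h AEL and 40.1, 52.7 and 39.2 CPM at 120h AEL. For both, all 72h AEL libraries lay above all 96h AEL libraries.

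Regulators of mitochondrial gene expression went both ways, with 2 of 10 tested higher and 1 lower in the first transition, beside 19.4% and 23.0% of all genes. From 72h to 96h AEL, ewg, the fly relative of the vertebrate factor NRF1, rose with a log2 fold change of 1.87 (SE 0.29, adjusted p = 0.0126), from 10.4, 10.3 and 16 CPM to 55.7, 46.5 and 38.1 CPM. Ets97D, the fly relative of the alpha subunit of vertebrate GABP, rose with one of 0.51 (SE 0.14, adjusted p = 0.0377), and mtTFB1 fell with one of -0.55 (SE 0.16, adjusted p = 0.0448). The other 7 of 10 tested, among them srl, the fly relative of vertebrate PGC-1, did not pass, and 0 of the 10 passed from 96h to 120h AEL (edgeR; 0 also at an unadjusted p under 0.05 and with DESeq2). Scaling by library size alone kept the calls of ewg and Ets97D and ended that of mtTFB1 (-0.06), and without 96h AEL replicate B none of the 3 passed (adjusted p = 0.0604 to 0.174). srl had 52.3, 53.7 and 94 CPM at 72h AEL, 125, 97.9 and 77 CPM at 96h AEL and 98.8, 68.4 and 87.3 CPM at 120h AEL.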
